A study of Zea mays with 7 samples.

Results

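At 413 places in the maize genome, a region enriched in acetylated histone H3 lysine 9 (H3K9ac) was listed in seedling stem and in husk, and the husk region was no longer than the seedling one. These sites were the exception among the sites shared by both tissues, since husk regions were as a rule the longer ones. The sites were chosen by the lengths of the regions themselves. A site was 1 region of V2-IST and 1 region of husk that overlapped each other by at least 1 bp and no other region of the opposite tissue, and it was kept where the husk length divided by the V2-IST length was 1 or less. Of 15878 such one-to-one sites, 413 met the rule, which is 2.60% of them (95% Wilson interval 2.36 to 2.86%). This share is the background of the rule itself, so nothing is read from it. The remaining 15465 sites, with a longer husk region, are called the other sites.

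The data come from H3K9ac ChIP-seq on the maize inbred line B73, without treatment or transgene. V2-IST is the inner stem of seedlings at the V2 stage, freed of outer leaves and exposed blades, with 2 replicates. Husk is the soft inner leaf layers around the ear at silk emergence, before pollination, with 3 replicates. Input chromatin without antibody was sequenced for both tissues as a control, and several immunoprecipitations were pooled in each library. The authors deposited 1 list of enriched regions per tissue, with 17170 regions in V2-IST and 28004 in husk. Each region is a chromosome, a start and an end on the B73 genome version AGPv4, and replicates are already combined. Because husk combines more replicates than V2-IST, and the union of more replicates can be longer, the comparison of lengths carries that difference in processing. Its part in the results was not tested. The lists hold no signal, no depth and no replicate values, so no spread between replicates could be computed and no test was run. The intervals given cover counting error over sites, which are not independent replicates. All positions below are 1-based on AGPv4. Left is the end with the lower coordinate.

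H3K9ac is placed by histone acetyltransferases and removed by deacetylases. In plants it is found on the first nucleosomes downstream of active transcription start sites and at active distal regulatory elements such as enhancers. The width of a listed region reflects over how many neighbouring nucleosomes enrichment passes the caller's cutoff, and how replicates were combined. A shorter husk region therefore says only that the listed acetylation covers less sequence there. The height of the enrichment is not in the lists, so width could not be separated from it. Which genes most of the sites belong to was not analysed here, because no gene annotation of AGPv4 was used here and the one given lies on a different assembly. For the same reason no sequence of the sites is shown, and the tissues were not checked against marker genes.

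Compared with the other sites, the V2-IST regions were longer and the husk regions shorter. V2-IST regions had a median length of 994 bp at the 413 sites (95% order-statistic interval 937 to 1034 bp, quartiles 775 and 1342 bp, range 428 to 3861 bp). At the other sites they had a median of 597 bp (592 to 602 bp). Husk regions had a median of 810 bp at the 413 sites (774 to 838 bp, quartiles 654 and 1109 bp, range 310 to 3724 bp) and of 1024 bp at the other sites (1012 to 1036 bp). The sites thus lay toward the long end of the V2-IST list and toward the short end of the husk list. V2-IST regions of at least 1000 bp were present at 203 of the 413 sites (49.2%) and at 15.6% of the other sites. Husk regions under 500 bp were present at 33 sites (7.99%) and at 1.05% of the other sites. Since both lengths enter the rule, these values describe the sites and are no finding about them.

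**Figure D1:**
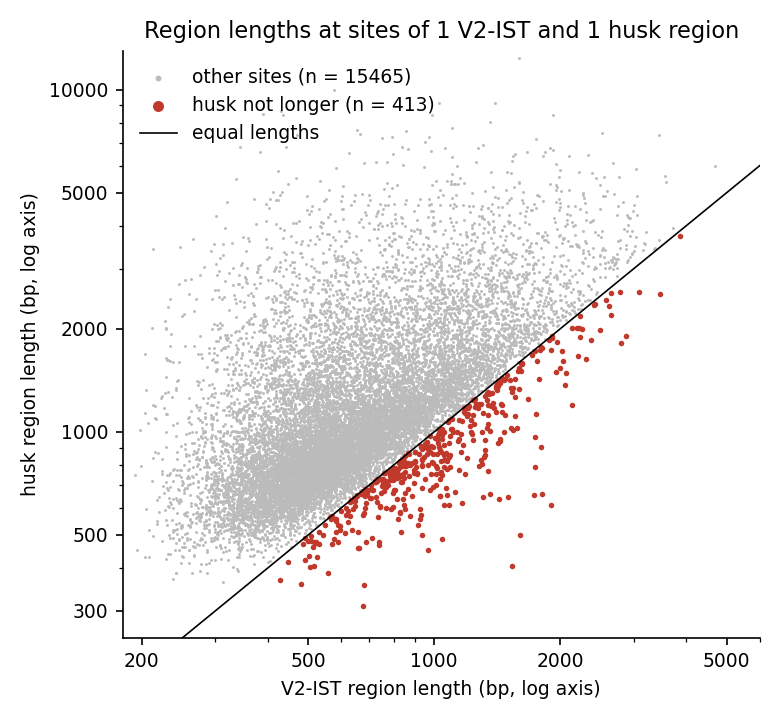
Length of the V2-IST region (x axis, bp, log scale) and of the husk region (y axis, bp, log scale) at each one-to-one site. Red points are the 413 sites with a husk region no longer than the V2-IST region, grey points the 15465 other sites, and the line marks equal lengths. The red points run from V2-IST lengths of 428 to 3861 bp and lie on or below the line.

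The length plot shows the V2-IST length along which the sites spread. When the one-to-one sites were ordered by V2-IST length and cut into 10 equal groups, the group with the shortest V2-IST regions (193 to 370 bp) held 0 of the 413 sites. The group with the longest (1185 to 4680 bp) held 138, or 8.70% of its 1587 one-to-one sites. The groups between them held from 1 to 100. Over the same groups the median length ratio of all one-to-one sites went from 2.26 in the shortest to 1.33 in the longest. The V2-IST length orders the groups and is also the denominator of the ratio, so both trends are partly built in and nothing is read from them.

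The husk regions ranged from equal in length to far shorter. Husk length over V2-IST length had a median of 0.90 at the 413 sites (0.87 to 0.91, quartiles 0.78 and 0.96) and 1.62 at the other sites (1.61 to 1.63). A ratio above 0.95 was seen at 123 sites, or 29.8% of them, and a further 76 lay between 0.9 and 0.95. At 214 sites the ratio was 0.9 or less. At the other end, 13 sites had a ratio of 0.5 or less. The V2-IST region was at least 1.5 times as long as the husk region at 49 sites, which is 0.309% of all one-to-one sites. In bp, the median V2-IST region reached over 178 bp of sequence outside its husk region (162 to 220 bp). Husk length minus V2-IST length had a median of -100 bp (-120 to -84 bp).

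Both lengths were equal at 3 sites. On chromosome 1 these were regions of 490 bp, from 178718390 to 178718879 in V2-IST and shifted by 13 bp in husk, and of 865 bp, from 262482994 to 262483858 in V2-IST and shifted by 131 bp. The third, on chromosome 6 from 143609113 to 143609869, measured 757 bp and was shifted by 14 bp.

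The rule cuts through a continuous range of ratios. Just inside it, below the equal lengths, were pairs of 1912 (V2-IST) and 1911 bp (husk) on chromosome 1, of 1083 and 1082 bp on chromosome 4, and of 728 and 727 bp on chromosome 2. Just outside it were pairs of 1177 and 1178 bp on chromosome 2, of 645 and 646 bp on chromosome 1, and of 875 and 877 bp on chromosome 10. Sites next to the limit on either side thus differed in length by 1 or 2 bp.

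How the husk region lay against the V2-IST region was read from both edges of each pair. At 363 of the 413 sites (87.9%, 84.4 to 90.7%) the 2 regions were shifted against each other, the husk region ending first on one side and reaching further on the other. At the remaining 50 sites (12.1%, 9.30 to 15.6%) the husk region lay inside the V2-IST region. At the other sites the reverse nesting was the rule, with the V2-IST region inside the husk region at 92.5% of them, while 7.51% were shifted. A longer region cannot lie inside a shorter one, so these shares follow in part from the rule and only describe the sites.

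The reach of the husk region was also taken at each edge. For each site the reach of husk beyond the V2-IST edge was taken, counted as negative where husk ended first, and the edge with the lower value was called the shorter husk edge. At that edge the median reach was -175 bp (-212 to -162 bp, quartiles -354 and -99 bp). At the opposite edge the husk region still reached further than V2-IST, by a median of 68 bp (58 to 77 bp, quartiles 23 and 121 bp). At the other sites the corresponding medians were 90 and 259 bp. The rule and the ordering of the edges fix that the first value is negative and the second is higher, so only the sizes are descriptive. The opposite edges lay within 100 bp of each other at 275 of the 413 sites (66.6%).

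**Figure D2:**
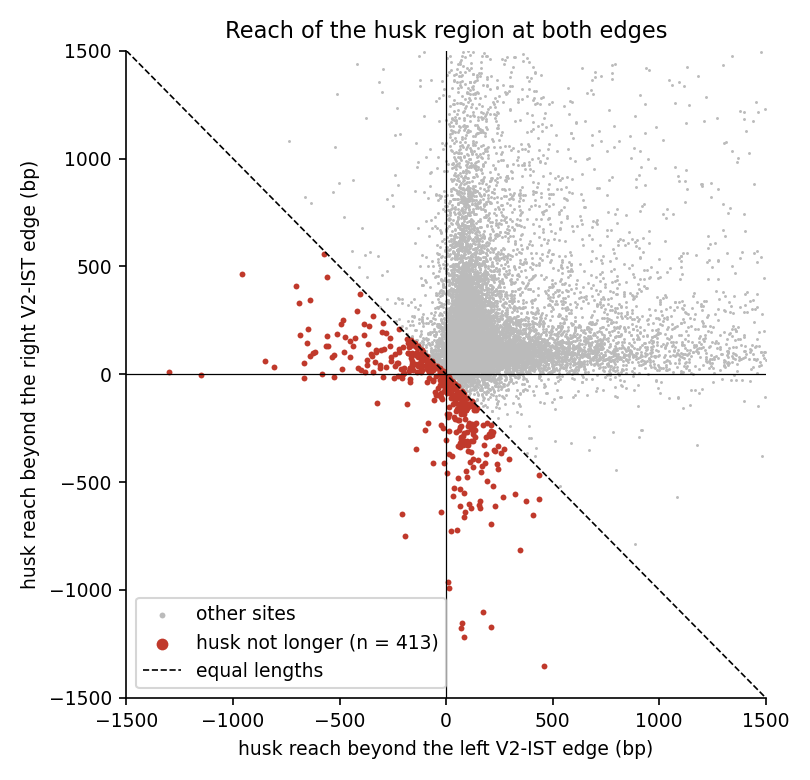
Reach of the husk region beyond the left V2-IST edge (x axis, bp) and beyond the right V2-IST edge (y axis, bp) at each one-to-one site, negative where husk ended first. Red points are the 413 sites and grey points the other sites, of which 915 lie outside the axes of 1500 bp; the dashed line marks equal lengths, and the red points with a low value on one axis mostly lie above 0 on the other.

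In the plot of both edges the sites fall into 2 arms, since husk regions that ended far inside the V2-IST region mostly did so on one side. The husk edge fell short by at least 200 bp at 193 sites (46.7%), by at least 500 bp at 60 (14.5%) and by at least 1000 bp at 8 (1.94%). At 26 of the 60 sites short by 500 bp or more, the opposite edges of both regions were within 100 bp of each other. Among the 13 sites with a ratio of 0.5 or less this pattern was seen at 10.

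The right edge was the shorter one at 230 sites (55.7%, 50.9 to 60.4%) and the left edge at 183. The difference was largest on chromosome 6, with 27 on the right and 10 on the left. On chromosomes 5, 9 and 10 the counts were equal, and on no chromosome was the left more frequent. At the other sites the right edge was the shorter one at 49.5% (48.7 to 50.3%). Left and right carry no direction of transcription here, as the strand of the nearest gene is not known for most sites.

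The site with the lowest ratio lies on chromosome 7. Its V2-IST region spanned 1538 bp, from 35744832 to 35746369, and its husk region 406 bp, from 35744748 to 35745153, a ratio of 0.26. The left edges were 84 bp apart, whereas on the right the V2-IST region ran on for 1216 bp. The second, at the far end of the same chromosome, had the same shape. There the V2-IST region covered 1605 bp, from 174144023 to 174145627, and the husk region 500 bp, from 174143954 to 174144453, with left edges 69 bp apart and 1174 bp of V2-IST region beyond the right husk edge.

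The next 2 sites showed the mirror image, with the right edges aligned. On chromosome 1 the V2-IST region ran from 248570885 to 248572788 (1904 bp) and its husk partner from 248572185 to 248572797 (613 bp). Its right edges differed by 9 bp and its left edges by 1300 bp. On chromosome 3 the V2-IST region between 31836185 and 31837995 (1811 bp) contained a husk region of 660 bp whose right end lay 2 bp before that of V2-IST. The fifth, on chromosome 4 from 71186687 to 71188415 in V2-IST, had lengths of 1729 and 654 bp, with left edges 76 bp apart. In all 5, the edges on one side agreed within 100 bp and on the other side differed by over 1000 bp.

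At the 3 sites with the largest shifts between the midpoints, the husk region also reached beyond the V2-IST region by over 200 bp. On chromosome 6, from 106962505 to 106964300 in V2-IST, the lengths were 1796 and 904 bp and the regions shared 443 bp. V2-IST ran 1353 bp further on the right and husk 461 bp further on the left. On chromosome 3, a V2-IST region of 1301 bp starting at 48774815 and a husk region of 807 bp starting at 48775772 shared 344 bp. On chromosome 6, regions of 2869 bp (V2-IST, between 154923608 and 154926476) and 1911 bp (husk) shared 1698 bp.

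Long acetylated regions were represented as well. V2-IST regions over 2 kb were present at 27 of the 413 sites (6.54%) and at 1.36% of the other sites. Husk regions over 2 kb went the other way, at 14 sites (3.39%) and at 13.7% of the other sites. Both lengths enter the rule, so neither difference is a finding about the sites. The longest, on chromosome 4 from 1863490 to 1867350, had 3861 bp as a V2-IST region and 3724 bp as a husk region, with the husk region 39 bp short on the left and 98 bp on the right. This was a site with nearly the same extent in both tissues.

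At the 4 next longest the husk region was clearly shorter. A V2-IST region of 3459 bp starting at 170203064 on chromosome 4 met a husk region of 2533 bp, and one of 3090 bp starting at 169290351 on chromosome 7 met a husk region of 2567 bp. The last 2 were the site of 2869 bp on chromosome 6 named above and one of 2801 bp on chromosome 1, starting at 225600868, with a husk region of 1823 bp. Their ratios lay between 0.65 and 0.83.

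In sum of length, the 413 sites held 461174 bp of V2-IST region and 386680 bp of husk region, of which 350506 bp were shared. Sequence covered in V2-IST and not in husk came to 110668 bp at these sites and to 74776 bp at all of the other sites together. The 413 sites therefore held 59.7% of the sequence that was enriched only in V2-IST at one-to-one sites, a share that follows in part from the rule.

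Position in the genome was not used by the rule. The sites were found on all 10 chromosomes, in numbers from 27 on chromosome 8 to 65 on chromosome 1. As a share of the one-to-one sites of a chromosome they ran from 1.90% on chromosome 8 (1.31 to 2.75%) to 2.90% on chromosome 6 (2.11 to 3.97%), and every one of the 10 intervals included the genome-wide share of 2.60%. Their median ratio per chromosome lay between 0.84 and 0.93.

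**Figure D3:**
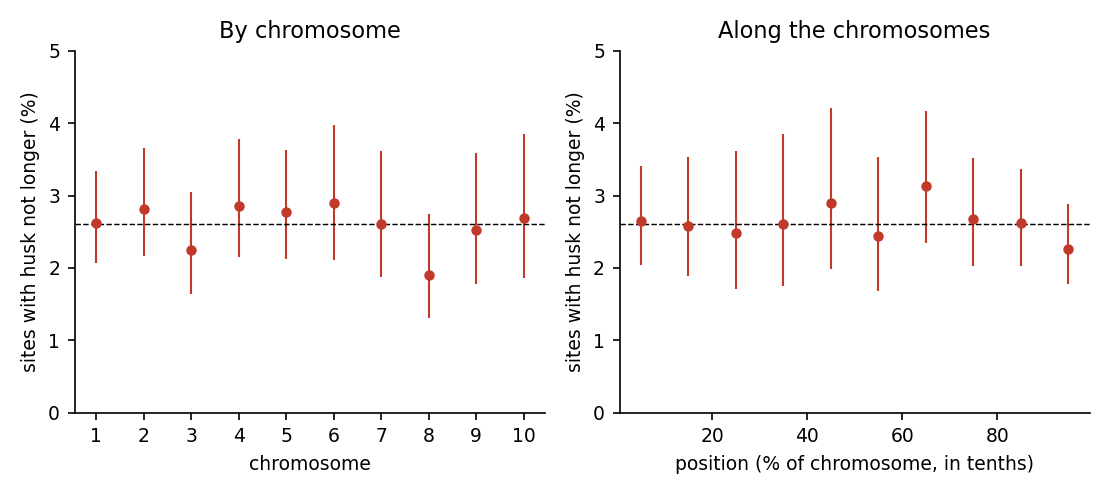
Sites with a husk region no longer than the V2-IST region, as a percent of one-to-one sites, by chromosome (left) and by position, with each chromosome cut into 10 equal parts (right). Points are shares, bars 95% Wilson intervals over sites and the dashed line the genome-wide share of 2.60%; each interval crosses the dashed line.

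Along the chromosomes, each divided into 10 equal parts up to the last listed position, the share was between 2.27% in the last of these (1.78 to 2.88%) and 3.13% in the seventh (2.35 to 4.16%). Within the outer 10% at either chromosome end lay 29.5% of the 413 sites (25.3 to 34.1%) and 31.7% of the other sites. All 10 of these intervals included 2.60% as well.

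In 9 cases a pair of the sites followed each other with no other one-to-one site between. The V2-IST regions of these pairs were from 10333 to 296002 bp apart, and 3 of the 9 pairs were within 12 kb. The 2 closest, on chromosome 5, were 8798 bp apart with another one-to-one site between them. The first had lengths of 1015 bp (V2-IST, from 220045055 to 220046069) and 954 bp (husk), and the second of 872 bp (V2-IST, from 220054868 to 220055739) and 742 bp (husk).

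Around the sites, the size of the husk excess at neighbouring sites was also measured. For 100 of the 413 sites a one-to-one site with a longer husk region lay within 10 kb. The median ratio of these 112 neighbours was 1.64 (1.54 to 1.81), against 1.68 (1.66 to 1.70) for neighbours of the other sites. Because only neighbours with a longer husk region were taken, both medians lie above 1 by construction, and only their sizes are given here.

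Husk regions around the sites were as frequent as elsewhere. The next husk region lay at a median distance of 14125 bp from the husk region of the site (11932 to 19652 bp) and of 15227 bp at the other sites. Another husk region was found within 1 kb at 7 of the 413 sites (1.69%, 0.823 to 3.46%) and at 1.66% of the other sites, and within 2 kb at 31 sites (7.51%) and at 1237 of the 15465 other sites. On the side of the shorter husk edge a husk region followed within 2 kb at 13 sites, and on the opposite side at 19.

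The nearest other V2-IST region lacked a husk partner at a larger share of these sites than of the other sites. This was the case at 40 of the 413 sites (9.69%, 7.19 to 12.9%) and at 792 of the 15465 other sites (5.12%, 4.78 to 5.48%), and in the V2-IST list as a whole 946 regions, or 5.51%, had no husk region. Where the nearest V2-IST region was within 10 kb, the shares were 13 of 111 (11.7%, 6.97 to 19.0%) and 4.73% (4.11 to 5.44%). Where it was further away, they were 27 of 302 (8.94%, 6.22 to 12.7%) and 5.26% (4.86 to 5.68%). The shares within and beyond 10 kb are parts of the first comparison and not separate results. The intervals of both groups of sites did not overlap in any of them, but no test was run. These intervals cover only counting error over sites that are not independent replicates, so they do not decide the difference. How sites were formed also bears on this measure, since a husk region that reaches a nearby V2-IST region takes its site out of the one-to-one set. Within 2 kb on the side of the shorter husk edge, 4 of 13 further V2-IST regions had no husk region. The part of site formation in the difference was not tested.

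A further V2-IST region close by was found within 2 kb at 17 of the 413 sites (4.12%, 2.59 to 6.49%) and at 1.77% of the other sites (1.57 to 1.99%). At 13 of the sites it was on the side of the shorter husk edge and at 4 on the opposite side, against 165 and 110 of the other sites. At 4 of the 13 the further region had no husk region. This measure is tied to how sites were formed. A husk region long enough to reach a second V2-IST region takes its site out of the one-to-one set. How often this happened was not measured, and its part in the difference was not tested.

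**Figure D4:**
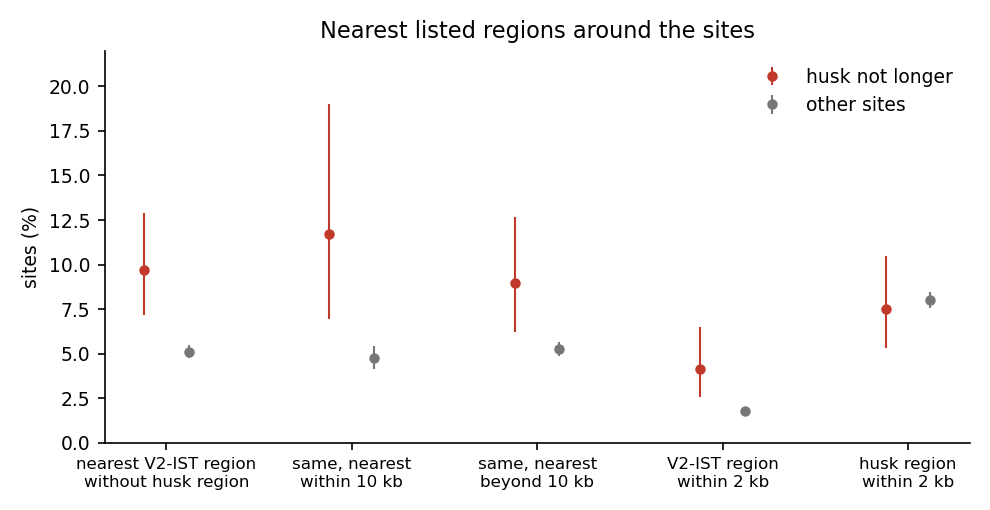
Percent of sites (y axis) at which the nearest other V2-IST region had no husk region, over all distances and split at 10 kb, and at which a further V2-IST or husk region lay within 2 kb. Red points are the 413 sites, grey points the other sites and bars 95% Wilson intervals over sites; for the nearest V2-IST region without a husk region the values were 9.69% and 5.12%.

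Distal regulatory elements were looked for among the sites with the positions of intergenic enhancer candidates on AGPv4 in the study's supplementary lists. The candidates combine low DNA methylation, DNase I hypersensitivity and an H3K9ac-enriched region of these same samples, so their overlap with the lists is no independent evidence. A candidate overlapped 6 of the 413 sites (1.45%, 0.667 to 3.13%) and 447 of the other sites (2.89%, 2.64 to 3.17%). Among the 214 sites with a ratio of 0.9 or less the share was 2.34% (1.0 to 5.35%). The intervals of the 413 sites and of the 214 sites both include the 2.89% of the other sites. Of the 6, 4 were listed as candidates in both tissues and 2 in V2-IST only. Candidates of husk only were found at 0 of the 413 sites, which allows a share of up to 0.726% if 3 counts are taken as the limit and of up to 0.922% by the Wilson interval. The share at the other sites was 0.705%, below both limits, so a difference was not detectable at this number of sites.

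The candidate named V2 in V2-IST and H1320 in husk enclosed both of its regions, which were short. The V2-IST region, on chromosome 3 from 46766075 to 46766589, spanned 515 bp, and the husk region, from 46766086 to 46766561, spanned 476 bp. A further 2 candidates of both tissues lay on chromosome 9. At V30/H1258 the V2-IST region of 818 bp began at 60777166 and the husk region of 556 bp began 13 bp later, whereas on the right it ended 249 bp earlier. At V166/H682 the lengths were 935 and 793 bp. In these 3, and in V62 on chromosome 7 where the lengths were 428 and 370 bp, the husk region was nested inside the V2-IST region. Nesting was thus seen at 4 of 6 candidates and at 50 of the 413 sites in all. With only 6 sites, and with nesting tied to the lengths in the rule, nothing is read from this.

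The other 2 candidates were at shifted pairs. V221/H926, on chromosome 2, had lengths of 838 and 715 bp, with the husk region 47 bp further on the left. V235, a candidate of V2-IST only, was at the chromosome 1 site of 1904 and 613 bp, the third lowest ratio of all. Its husk region lay entirely inside the candidate, and of the V2-IST region 739 bp did. Most of the V2-IST region that had no husk counterpart was therefore outside the candidate.

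Gene starts could be placed for the 826 genes whose AGPv4 positions are listed in the supplement. The study linked these genes to enhancer candidates that they flank, and it used expression to do so. A gene was significantly higher in the candidate's tissue, or expressed in both tissues for shared candidates. More husk-specific than V2-IST-specific candidates were linked in the paper, so the list is not balanced between the tissues. The 826 genes are thus a small and selected set. The start of 6 of them lay in a region of the 413 sites, and 287 gene starts lay in a region of the other sites. At 2 of the 6 the start was inside the regions of both tissues, and at 4 only the V2-IST region covered it. At the other sites both regions covered 121 starts, only the husk region covered 166, and the V2-IST region alone covered 0. The V2-IST region lay inside the husk region at 92.5% of the other sites, which leaves little sequence for a start covered by V2-IST alone.

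At the 4 genes the husk region stopped short of the start. At Zm00001d046778 on chromosome 9 the V2-IST region of 2226 bp reached across the start, while the husk region of 1897 bp began 257 bp downstream of it. At Zm00001d053151 and Zm00001d049016, both on chromosome 4, it began 45 and 10 bp downstream. At Zm00001d013118 on chromosome 5 the distance was 26 bp. There the husk region was nested in the V2-IST region, and on which side of the start it lay was not determined. The 2 genes with a start in both regions were Zm00001d022747 on chromosome 1, with regions of 508 and 481 bp, and Zm00001d024781 on chromosome 10, with 1106 and 1001 bp. The shorter husk edge pointed upstream at 3 of the 6 genes and downstream at the other 3. What these genes encode is not given in the sources used here.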

How the data were processed

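The H3K9ac libraries comprised 2 replicates of V2-IST and 3 of husk, besides input chromatin. Reads were aligned to AGPv4 with BWA by the authors and filtered at a mapping quality of 20 with SAMtools. Peaks were called in each replicate by MACS2 (q-value 0.001), with input chromatin as the control. Peaks overlapping by 70% or more between replicates were kept and combined. The deposited values are bp coordinates of the combined regions, a start and an end each, 1 list per tissue; the starts were taken as 0-based. Tool versions and depth are not given in the lists.

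Regions were paired with functions written in Python 3.11.15 (numpy 2.4.6, pandas 2.3.3, scipy 1.17.1, matplotlib 3.10.9), which were tested on simulated regions and checked against bedtools 2.31.1. Intervals are 95% Wilson intervals for shares and order-statistic intervals for medians. The sites, measures and alternatives were chosen with earlier results of these data known. Alternatives covered the ratio limit, the overlap, the minimum length, the joining of regions, means, and the windows. Sites named in the text are the 5 lowest ratios, the 5 longest V2-IST regions, the 3 nearest the limit on either side, the 3 largest shifts, the 2 closest sites, and those at enhancer candidates or listed gene starts; the 3 of equal length were added after their values were seen. Of the supplementary lists only positions, strands and names were used. Signal tracks and expression values were not used here, although the study had used expression to link the listed genes.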

Additional observations from a re-analysis of the deposited data

How the results depend on the processing

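No paired analysis was possible because each list combines its replicates, and for the same reason no replicate could be left out and no stricter peak threshold applied. With the limit on the ratio at 0.9 or less, 214 sites remained, or 1.35% of one-to-one sites, with median lengths of 1038 bp (V2-IST) and 770.5 bp (husk) and a median ratio of 0.78. Where the regions of a site had to share at least 50% of both lengths, the share was 3.41% of a smaller number of one-to-one sites and the median ratio of neighbouring sites 1.47. At 70% the share was 5.35%, the median husk length 861 bp, the median ratio 0.94 and that of neighbouring sites 1.23, since the stricter overlap removes wide husk partners. With regions of at least 500 bp the share was 3.48% and the ratio of neighbouring sites 1.54. Means in place of medians were 1117 bp for V2-IST length, 936 bp for husk length, 0.85 for the ratio, 34283 bp to the next husk region and 1.96 for neighbouring sites. A window of 2 kb in place of 1 kb gave 7.51% of sites with another husk region. Leaving out equal lengths or searching neighbours within 50 kb moved no value beyond its interval. Asking for 200 bp of overlap or joining regions closer than 200 bp left the same 413 sites, so these settings are no check of them. The regions of each site shared at least 285 bp, and the next region lay at least 832 bp away in husk and 818 bp in V2-IST.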

Other observations

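The rule leaves out V2-IST regions that span more than 1 husk region, of which there were 2, both on chromosome 1. The longer, between 6908948 and 6914203 (5256 bp), overlapped husk regions of 2633 bp (from 6907930 to 6910562) and 3043 bp (from 6911377 to 6914419), which were 814 bp apart. The shorter, between 51816549 and 51818351 (1803 bp), overlapped husk regions of 643 and 688 bp, which were 869 bp apart. At both, the listed acetylation was continuous in V2-IST and interrupted in husk. At the first, the husk regions together measured 5676 bp, more than the V2-IST region, and at the second 1331 bp, less than it.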
